A study of Homo sapiens with 16 samples.

Results

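NF-κB peaks were counted at 34 genes that are well-known targets of this transcription factor in cell survival and inflammation, out of 20037 protein-coding genes on the autosomes and sex chromosomes. The genes were taken from a fixed list and were not picked by their peaks, but the list was chosen with earlier results of these data known. Each gene was represented by its RefSeq span in GRCh38 with 1 kb added on either side. Chromatin immunoprecipitation and sequencing (ChIP-seq) had been done in T47D cells, an established estrogen receptor-positive luminal A breast cancer line, with antibodies against the NF-κB subunits RELA, RELB and NFKB2. The cells had been transduced with lentivirus carrying shRNA against DAB2IP (knockdown) or an empty vector (control), and both conditions were selected with puromycin as stable lines and cross-linked with disuccinimidyl glutarate and formaldehyde. Each antibody was used on 2 knockdown and 2 control libraries, which gave 12 peak lists in 6 groups. A preparation means the 3 libraries, one for each antibody, that share a condition and a replicate number, and there were 4 of them. The libraries of a preparation also share an input library. The protocols name no cytokine treatment. The labels do not say whether the replicates came from separate transductions or cultures, so p-values measure only the spread between these libraries. Peak lists hold no expression, so neither the loss of DAB2IP nor luminal markers could be checked in them.

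NF-κB subunits form dimers that are held in the cytoplasm by inhibitors until a signal releases them. RELA belongs to the canonical arm, which responds to TNF and interleukin 1, and RELB with the processed form of NFKB2 belongs to the noncanonical arm, which responds to receptors such as CD40. In the nucleus both kinds of dimer bind short κB sites in promoters and enhancers. Their classical targets include genes that block cell death (BIRC2, BIRC3, XIAP, CFLAR and the BCL2 family), genes that recruit and activate leukocytes (adhesion molecules, chemokines and cytokines), and feedback regulators of the pathway itself.

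A κB site was searched on both strands in the RefSeq promoter windows (GRCh38.p14, 250 bases before to 50 after a transcript start), which were at hand for 28 of the 34 genes (not for CCL2, CCL5, NOS2, MMP9, CD40 and CCND1). The loose pattern GGGNNNNNCC was present in 23 of the 28 genes (82.1%) and in 72.8% of all 15843 genes with a window. The stricter κB consensus, every match of which also fits the loose pattern in one of its orientations, was present in 11 of the 28 (39.3%) and in 15.9% of all genes. These 11 were BIRC3, CFLAR, VCAM1, SELE, CCL20, CXCL10, IL6, CD83, TNIP1, IRF1 and GADD45B, with 16 sites once overlapping matches were joined. The sites below are shown because they are the places where binding of a κB dimer would be looked for first. Each is a run of 30 bases from RefSeq, 5′ to 3′ on the strand of the gene, with the κB consensus in capitals. The first 6 lay under a peak of at least 1 library, and the last 3 under none.
CD83, chr6:14117638-14117647, + strand: ggcggggacgGGGGCGCCCCggcctaagcg
CD83, chr6:14117696-14117707, + strand: ctgcccgccGGGGAATCCCCCgggctggcg
CD83, chr6:14117721-14117731, + strand: tggcgcgcaGGGAAGTTCCCgaacgcgcgg
CXCL10, chr4:76023665-76023674, − strand: gaggagcagaGGGAAATTCCgtaacttgga
TNIP1, chr5:151081067-151081076, − strand: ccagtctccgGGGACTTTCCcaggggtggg
VCAM1, chr1:100719680-100719689, + strand: tccccttgaaGGGATTTCCCtccgcctctg
CFLAR, chr2:201118619-201118628, + strand: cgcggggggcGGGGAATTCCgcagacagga
IL6, chr7:22727127-22727136, + strand: tatcaaatgtGGGATTTTCCcatgagtctc
BIRC3, chr11:102317285-102317294, + strand: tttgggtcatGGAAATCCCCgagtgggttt

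Of the 16 sites, 7 (43.8%) lay under a peak in 1 to 3 libraries and 9 under none. Over all protein-coding genes 1016 of 2942 such sites (34.5%) lay under a peak of at least 1 library. The CD83 sites nearest to the start, at 76 and 51 bases before it (CD83 is an activation antigen of dendritic cells), lay under peaks of control RELA replicate 2, knockdown RELB replicate 2 and control RELB replicate 2. The VCAM1 site was covered in control RELB replicate 1 and control NFKB2 replicate 1, the CXCL10 site in control RELA replicate 2, and the TNIP1 site in control RELA replicate 1. Counted over sites and libraries, 13 of 192 pairs were covered (6.77%), and CD83 alone gave 7 of the 13. Over all protein-coding genes 1273 of 35304 pairs were covered (3.61%). No site was under peaks of both libraries of any group.

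The promoters that lay under peaks in the most libraries were those of CFLAR (7 libraries over its 4 windows), CD83, IRF1 and SELE (4 each) and ICAM1, VCAM1 and XIAP (3 each). At most 5 genes were to be shown, and ICAM1 was taken among the last 3 by alphabetical order. Of the 28 genes, 19 (67.9%) had at least 1 library with a peak on a promoter window, where 62.2% of all genes with a window had one. The windows of CFLAR and CD83 lie inside the span of longer transcripts, and only their κB sites are printed above. The 250 bases before the start are given for the other 3 genes, again with the κB consensus in capitals. They are only a part of each window, and a peak on the window need not cover them. At ICAM1 the 3 libraries with a window peak shared chr19:10271154-10271208, which is 34 to 88 bp after the start and outside the printed bases. At IRF1 the stretch under peaks of 3 libraries ran from 5 to −34 bp from the start, only partly within the printed bases. The interferon response factor IRF1 and the endothelial selectin SELE each hold 1 consensus site. The adhesion molecule ICAM1 holds no match to the strict consensus, though its window holds the loose pattern. This says only that the strict letters are absent, not that a κB site is. A run close to them, such as tggaaattcc in the ICAM1 sequence, was left in lower case.
IRF1, chr5:132490774-132491023, − strand: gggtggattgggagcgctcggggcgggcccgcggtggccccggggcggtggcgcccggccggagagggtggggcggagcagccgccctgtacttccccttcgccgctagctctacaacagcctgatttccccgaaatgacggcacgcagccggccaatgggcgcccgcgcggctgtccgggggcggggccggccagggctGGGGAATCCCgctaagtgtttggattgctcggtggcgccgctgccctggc
SELE, chr1:169734080-169734329, − strand: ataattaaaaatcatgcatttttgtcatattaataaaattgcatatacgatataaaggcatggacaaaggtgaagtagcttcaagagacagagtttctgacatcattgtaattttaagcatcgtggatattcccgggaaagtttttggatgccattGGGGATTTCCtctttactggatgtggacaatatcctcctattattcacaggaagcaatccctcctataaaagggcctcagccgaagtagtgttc
ICAM1, chr19:10270870-10271119, + strand: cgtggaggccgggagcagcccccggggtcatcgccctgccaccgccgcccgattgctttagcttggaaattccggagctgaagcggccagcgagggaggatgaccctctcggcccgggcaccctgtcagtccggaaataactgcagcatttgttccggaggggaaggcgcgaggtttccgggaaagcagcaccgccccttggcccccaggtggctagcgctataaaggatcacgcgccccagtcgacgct

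The IRF1 window was under peaks of knockdown RELA replicate 1, knockdown RELB replicate 1, control RELB replicate 2 and knockdown NFKB2 replicate 2, and its site (chr5:132490814-132490823) was covered in the RELB libraries among these. The SELE window was under peaks of control RELB replicate 2, knockdown NFKB2 replicate 1 and both control NFKB2 libraries, none of which reached its site. The ICAM1 window was under peaks of knockdown RELA replicate 1, knockdown NFKB2 replicate 2 and control NFKB2 replicate 1. Both conditions were therefore present among the libraries at each of these 3 promoters.

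The 34 genes held 1656 listed peaks, of which 1653 (99.8%) had a q of 1, the p-value of the peak caller after correction for multiple testing. The lists are open down to an unadjusted p of 0.05, and a median fold enrichment of 2.229 over the local background was seen at these genes. In the 10 libraries whose fragment numbers could be recovered from fold enrichment and p-value, a summit rested on a median of 3 fragments, the highest on 10, and 57.9% of 1600 summits on 3 or fewer. The remaining libraries, knockdown RELA replicate 1 and knockdown RELB replicate 1, are also those with short lists (105534 and 75078 peaks, against 517650 to 708764 in the others). The main comparisons are given below with and without them.

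XIAP, an inhibitor of caspases, carried the only peak at these genes with a q of at most 0.05. The peak lay inside the gene at chrX:123893435-123893674, 33846 bp after its start, in control RELA replicate 1, with a fold enrichment of 5.619, a −log10 q of 1.513 and 7 fragments over a background of 0.4237. Such a peak was present in at least 1 library at 0.649% of all protein-coding genes, and 0.18 of 34 genes of like length would have one. The second highest peak was at BIRC3, another inhibitor of apoptosis, in knockdown RELB replicate 2 (chr11:102331932-102332117, −log10 q of 0.317, 9 fragments). The next was at IRF1 in knockdown RELB replicate 1 (chr5:132486339-132486575, −log10 q of 0.179). With a q of 1, and so ordered by the unadjusted p-value, these were followed by PTGS2, the inducible cyclooxygenase, in control NFKB2 replicate 1 (9 fragments, at −635 bp from the gene start) and the AP-1 subunit gene JUNB in control RELB replicate 1 (8 fragments). These 5 peaks came from 5 different libraries.

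The first question was whether known targets carried peaks more often than other genes. Since a long gene collects more peaks, each gene was set beside the 200 protein-coding genes nearest to it in length, as a description without a test. With RELA, a peak was present at 13 and 26 of the 34 genes in knockdown replicates 1 and 2 and at 27 and 28 in the controls, where genes of like length would give 14.1, 27.6, 25.9 and 27.1. With RELB the numbers were 12 and 23 in the knockdown and 27 and 27 in the control, against 12.8, 24.3, 26.9 and 25.1. With NFKB2 they were 30 and 26 in the knockdown and 27 and 24 in the control, against 27.2, 26.3, 27.8 and 25.8. The known targets and the genes of like length differed by less than the spread between libraries, with a mean difference of −0.068 ± 1.454 genes (SD over 12 libraries, above 0 in 5). Without the libraries with short lists the mean difference was 0.10.

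The shares over all protein-coding genes, which include many long ones, were 54.3% and 85.3% (knockdown) and 81.2% and 84.2% (control) for RELA. They were 49.4%, 78.2%, 83.6% and 80.4% for RELB in the same order, and 84.3%, 82.9%, 85.5% and 81.1% for NFKB2. Over all genes and libraries 290 of 408 pairs of known target and library had a peak (71.1%), and 290.8 were given by genes of like length.

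**Figure D1:**
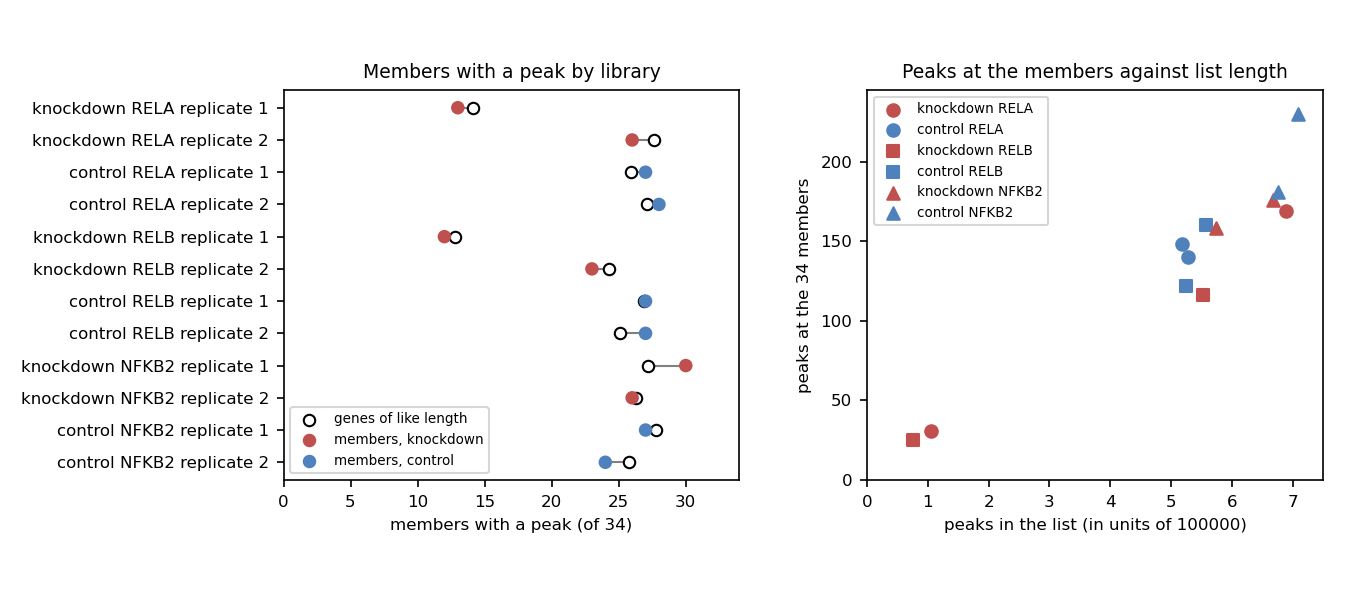
Left, the number of the 34 genes with a peak (filled points, red for knockdown and blue for control) and the number given by genes of like length (open points) in each of the 12 libraries. Right, the number of peaks at the 34 genes against the number of peaks in the list, in units of 100000, by group. The filled and open points lie within 2.82 genes of each other in every library, and the libraries with 31 and 25 peaks at the genes are those with the short lists.

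The number of peaks differed widely between the genes. BCL2, which encodes the founding anti-apoptotic protein of its family and spans 196.7 kb, held 425 of the 1656 peaks (25.7%), and CCL5, which encodes the chemokine RANTES, held none in any library. A total of 6 genes (17.6%) had a peak in all 12 libraries, namely BIRC2, BIRC3, BCL2, CFLAR, SOD2 and TNIP1. Among all protein-coding genes 35.9% had a peak in all 12 and 2.95% in none, and genes of like length would give 7.12 and 1.15 of 34. In all of the 10 libraries with long lists, 14 genes had a peak (41.2%, background 57.6%), where genes of like length would give 14.8.

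**Figure D2:**
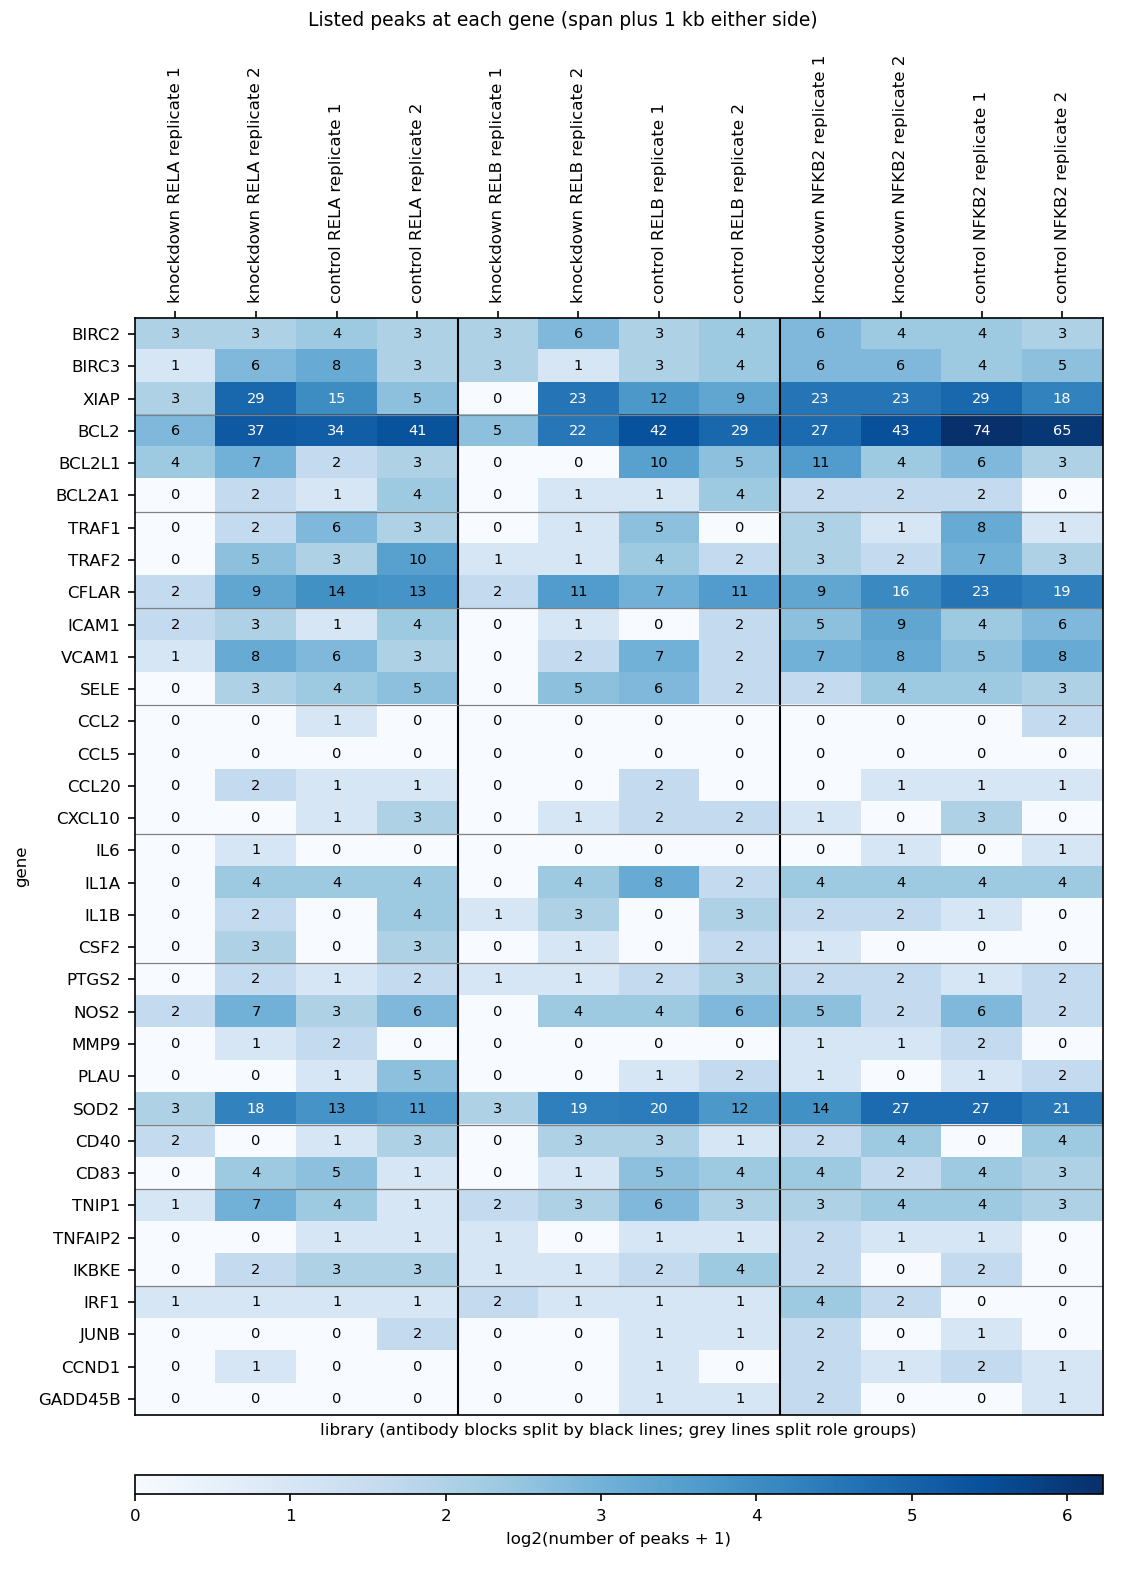
Number of listed peaks at each of the 34 genes (rows, grouped by role) in each of the 12 libraries (columns, grouped by antibody), with the number printed in each cell and the shade giving log2(number + 1). BCL2 has 5 to 74 peaks, CCL5 has none, and the first knockdown libraries of RELA and RELB are pale throughout.

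Among the inhibitors of apoptosis, XIAP stood apart from the ubiquitin ligases BIRC2 and BIRC3. XIAP had 3 and 29 peaks in the RELA knockdown and 15 and 5 in its control. With RELB it had 0 and 23 in the knockdown and 12 and 9 in the control, and with NFKB2 23 and 23 against 29 and 18. The groups overlapped with every antibody, and the total of 189 peaks was 1.771 times that of genes of like length, above them in 10 of 12 libraries. BIRC3 had 1 to 8 peaks per library and 1.195 times the number at genes of like length, and BIRC2 had 3 to 6 and 0.72 times. One stretch of XIAP, 68 bp at chrX:123899649-123899716 and 39941 bp after the start, was covered in 6 libraries, the most for any base at these genes. These were knockdown RELA replicate 2, control RELA replicate 2, knockdown RELB replicate 2, control RELB replicate 2, knockdown NFKB2 replicate 1 and control NFKB2 replicate 2, so that it was called equally often in both conditions.

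In the BCL2 family, BCL2 had 6 and 37 peaks (RELA knockdown) and 34 and 41 (control). With RELB it had 5 and 22 against 42 and 29, and with NFKB2 27 and 43 against 74 and 65. The knockdown was below the control without overlap with RELB (as at 25.0% of all protein-coding genes) and NFKB2 (14.6%). BCL2 held 1.052 times the number of peaks at genes of like length. BCL2L1, which encodes BCL-XL, had 4 and 7 peaks against 2 and 3 with RELA, 0 and 0 against 10 and 5 with RELB, and 11 and 4 against 6 and 3 with NFKB2. Its knockdown libraries lay above the control with RELA (as at 0.719% of all protein-coding genes) and below it with RELB (25.0%). These were opposite directions, and the groups overlapped with NFKB2. BCL2A1 had 0 to 4 peaks per library.

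The adaptors TRAF1 and TRAF2, which pass signals from TNF receptors, had 0 to 8 and 0 to 10 peaks per library, 0.561 and 0.459 times the number at genes of like length. CFLAR, the caspase-8 inhibitor c-FLIP, had 2 and 9 peaks against 14 and 13 with RELA, 2 and 11 against 7 and 11 with RELB, and 9 and 16 against 23 and 19 with NFKB2. The knockdown was below the control without overlap for CFLAR with RELA (as at 13.5% of all protein-coding genes) and NFKB2 (14.6%).

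The endothelial adhesion molecules together held 1.52 times the peaks of genes of like length (132 against 86.9). SELE had 0 and 3 peaks against 4 and 5 with RELA, 0 and 5 against 6 and 2 with RELB, and 2 and 4 against 4 and 3 with NFKB2. VCAM1, which binds integrins on leukocytes, had 0 to 8 peaks per library and ICAM1 0 to 9. With NFKB2, ICAM1 had 5 and 9 peaks in the knockdown and 4 and 6 in the control, and these overlapped.

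The chemokines held 25 peaks in all, against 38.1 at genes of like length. CXCL10, an attractant of T cells, had 13 of them and was 2.027 times its genes of like length, with 0 and 0 peaks against 1 and 3 (RELA), 0 and 1 against 2 and 2 (RELB), and 1 and 0 against 3 and 0 (NFKB2). CCL20 had 9 peaks, CCL2 had 3 in 2 libraries, and CCL5 had none. Of the cytokines, IL1A had the highest ratio of the 34 genes (42 peaks, 2.065 times), with exactly 4 peaks in 8 of the 12 libraries. IL1B had 18 peaks and the myeloid growth factor gene CSF2 had 10. IL6, whose promoter holds the κB site printed above, had 3 peaks, 1 each in knockdown RELA replicate 2, knockdown NFKB2 replicate 2 and control NFKB2 replicate 2, and 0.321 times the number at genes of like length.

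The enzymes spanned the range from SOD2, the mitochondrial superoxide dismutase (188 peaks, 0.972 times), through NOS2 (47 peaks), PTGS2 (19) and PLAU, the urokinase-type plasminogen activator (13), to the matrix metalloproteinase MMP9 (7 peaks, 0.471 times). The surface molecules CD40 and CD83 had 23 and 33 peaks, 1.014 and 0.877 times. The regulators of NF-κB signalling were low as a group, with 70 peaks against 193.7 at genes of like length. TNIP1, a partner of the inhibitor A20, had a peak in all libraries but 0.361 times the number for its length. The inducible kinase IKBKE (0.383) and TNFAIP2 (0.325) were similar. Of the remaining genes, IRF1 had 15 peaks, the cyclin D1 gene CCND1 had 8 (0.302 times), JUNB had 7, and the stress response gene GADD45B had 5.

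**Figure D3:**
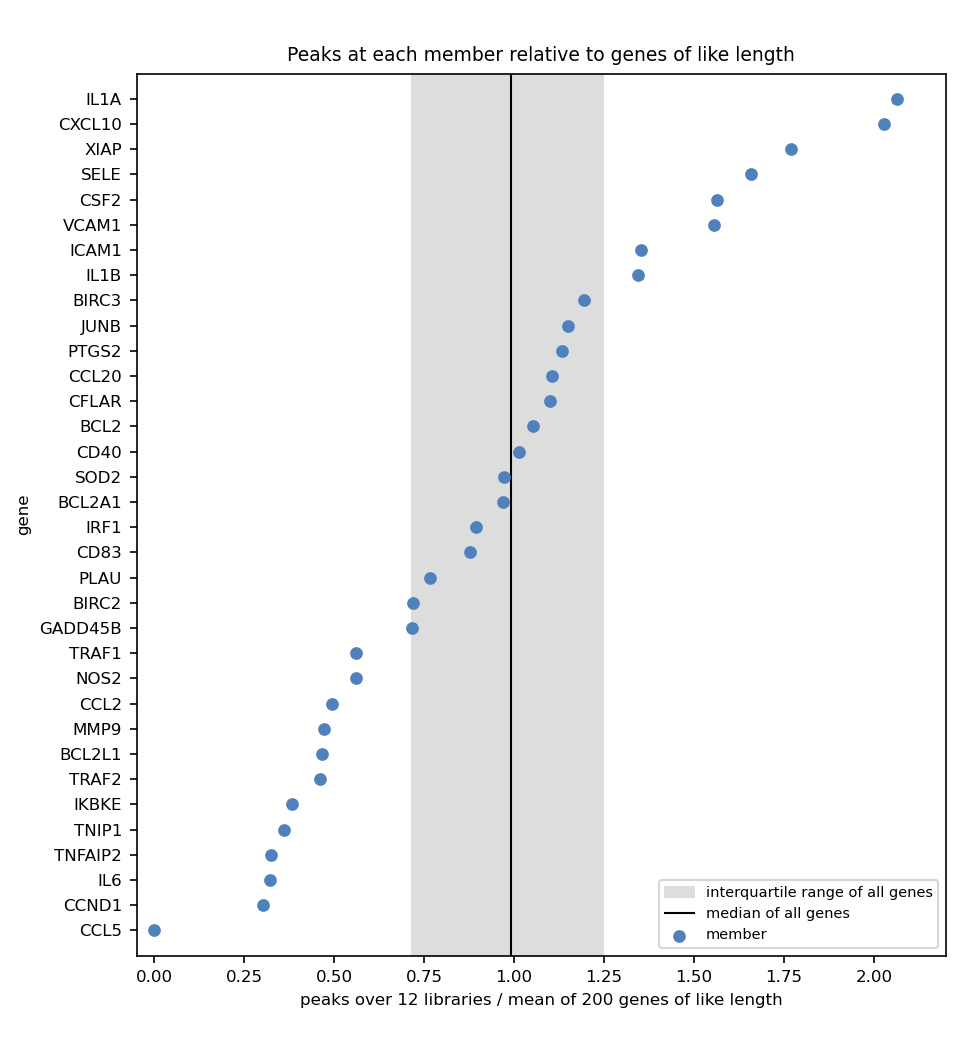
Peaks summed over the 12 libraries at each of the 34 genes, divided by the mean of the 200 protein-coding genes nearest in length (horizontal axis), with the median of all genes as a line and their interquartile range as a grey band. The genes run from 0 at CCL5 to 2.065 at IL1A, with 15 of 34 above 1.

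Over the 34 genes the median ratio was 0.932 (quartiles 0.476 and 1.184), and over all protein-coding genes it was 0.99 (0.717 and 1.246). Per library, the summed peaks were 0.913 ± 0.088 times those of genes of like length (SD, n = 12), below 1 in 10 of 12. The ratio was lower where the promoter window was richer in G and C: Pearson's r was −0.53 and Spearman's rho −0.53 across the 28 genes with a window, and −0.18 and −0.17 across all genes. These points share the same 12 libraries and genes are not replicates.

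The 20 other genes of the pathway (ligands, receptor-proximal adaptors, kinases, inhibitors and NFKB1) had a peak in 173 of 240 pairs of gene and library (72.1%, against 78.0% at genes of like length). RIPK1, MAP3K7, MAP3K14, IKBKB, TRAF3, CYLD and NFKB1, which span 51.2 to 134.1 kb, had a peak in all 12 libraries. Among all protein-coding genes 35.9% had one in all 12. The classical targets TNF and NFKBIA had 2 and 9 peaks in all, and TNFAIP3, which encodes A20, had 39 in 10 libraries. The peaks at TNF came from knockdown RELA replicate 2 and knockdown NFKB2 replicate 2. Its neighbours LTA and LTB each had 1 peak in each of the same libraries and none in any other. The lists of these libraries were the only ones with intervals over 5 kb (1332 and 1361). The part such intervals play at TNF, LTA and LTB was not tested.

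The next question was whether loss of DAB2IP changed the peaks at known targets. With RELA, 31 and 169 peaks lay at the 34 genes in the knockdown, against 140 and 148 in the control (log2 ratio −0.99, exact two-sided permutation p = 1). Without the short list of knockdown replicate 1 the ratio was 0.23. With RELB there were 25 and 116 against 160 and 122 (log2 ratio −1.38, exact permutation p = 0.33, the smallest that 2 libraries against 2 allow), and the ratio was −0.27 without knockdown replicate 1. With NFKB2, the numbers were 158 and 176 against 230 and 181, a log2 ratio of −0.29 (exact permutation p = 0.33). The groups overlapped with RELA and did not overlap with RELB and NFKB2. The RELB groups overlapped when peaks were counted in the gene span alone (log2 ratio −1.35, exact permutation p = 0.67). The NFKB2 groups overlapped when the summit had to lie inside the window (log2 ratio −0.27, exact permutation p = 0.67). Both separations were also lost when BCL2 was left out. Without it the numbers were 20 and 94 against 118 and 93 with RELB, and 131 and 133 against 156 and 116 with NFKB2, so that the groups overlapped, and the log2 ratios were −1.27 (exact permutation p = 0.67) and −0.027 (exact permutation p = 1).

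The ratios depended on how the length of the lists was taken into account. Per 100000 listed peaks, the 34 genes held 26.95 ± 3.42 in the RELA knockdown and 27.57 ± 1.44 in the control (SD, n = 2), a log2 ratio of −0.037. For RELB the values were 27.15 ± 8.7 and 25.97 ± 3.86, a log2 ratio of 0.034 and so of the opposite sign. For NFKB2 they were 26.94 ± 0.78 and 29.62 ± 4.0, a log2 ratio of −0.13. In each case the difference was smaller than the larger SD. With the same number of peaks from each library (75078, the length of the shortest list) the log2 ratios were −0.26 for RELA, 0.50 for RELB and −0.73 for NFKB2 (exact permutation p = 0.33 each, the smallest possible), so that the NFKB2 ratio was larger in size than with all peaks.

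Few genes had a peak in all libraries of a condition and none of the other. With RELA, no gene was called in both knockdown libraries only (background 0.414% of all protein-coding genes), and CXCL10, PLAU and TNFAIP2 were called in both control libraries only (3 of 34, background 2.94%). With RELB there were none in the knockdown (background 0.379%), and BCL2L1, PLAU, JUNB and GADD45B in the control (4 of 34, background 5.11%). With NFKB2, IRF1 alone was called in both knockdown libraries and neither control (background 1.46%), and none in the mirror image (background 1.34%). Genes of like length would give 0.15, 1.44, 0.16, 2.32, 0.70 and 0.67, and none of the 20 other pathway genes fell in any of these classes.

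These counts moved when a library was left out, and so did the shares of all genes. Without the short knockdown list (replicate 1) the control-only genes were 4 for RELA (background 3.86%) and 5 for RELB (background 6.73%), and the knockdown-only genes of RELA were 2 (IL6 and CCND1, background 3.68%). Without knockdown replicate 2, which leaves the short list alone to stand for the knockdown, the control-only genes were 12 for RELA (background 24.4%) and 13 for RELB (background 28.6%). The knockdown-only genes of NFKB2 were 5 without control replicate 1 (background 5.62%), 2 without control replicate 2 (background 3.63%) and 2 without knockdown replicate 2 (background 2.97%). The control-only genes of NFKB2 were 1 without knockdown replicate 1 (background 5.07%), knockdown replicate 2 (background 4.47%) or control replicate 1 (background 2.16%). Without control RELB replicate 2 the knockdown-only genes of RELB were 1 (background 0.988%). In 7 of the 8 instances the peaks of both libraries shared no base. At IRF1 the NFKB2 knockdown libraries had 4 and 2 peaks with a nearest distance between summits of 823 bp, resting on 5 fragments or fewer. At TNFAIP2 the nearest summits were 12403 bp apart, at PLAU 547 bp (RELA) and 3139 bp (RELB), at GADD45B 3538 bp, at JUNB 1145 bp and at CXCL10 634 bp. The exception was BCL2L1 with RELB, where the stretch chr20:31706423-31706569 lay under peaks of both control libraries. All of these peaks had a q of 1.

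**Figure D4:**
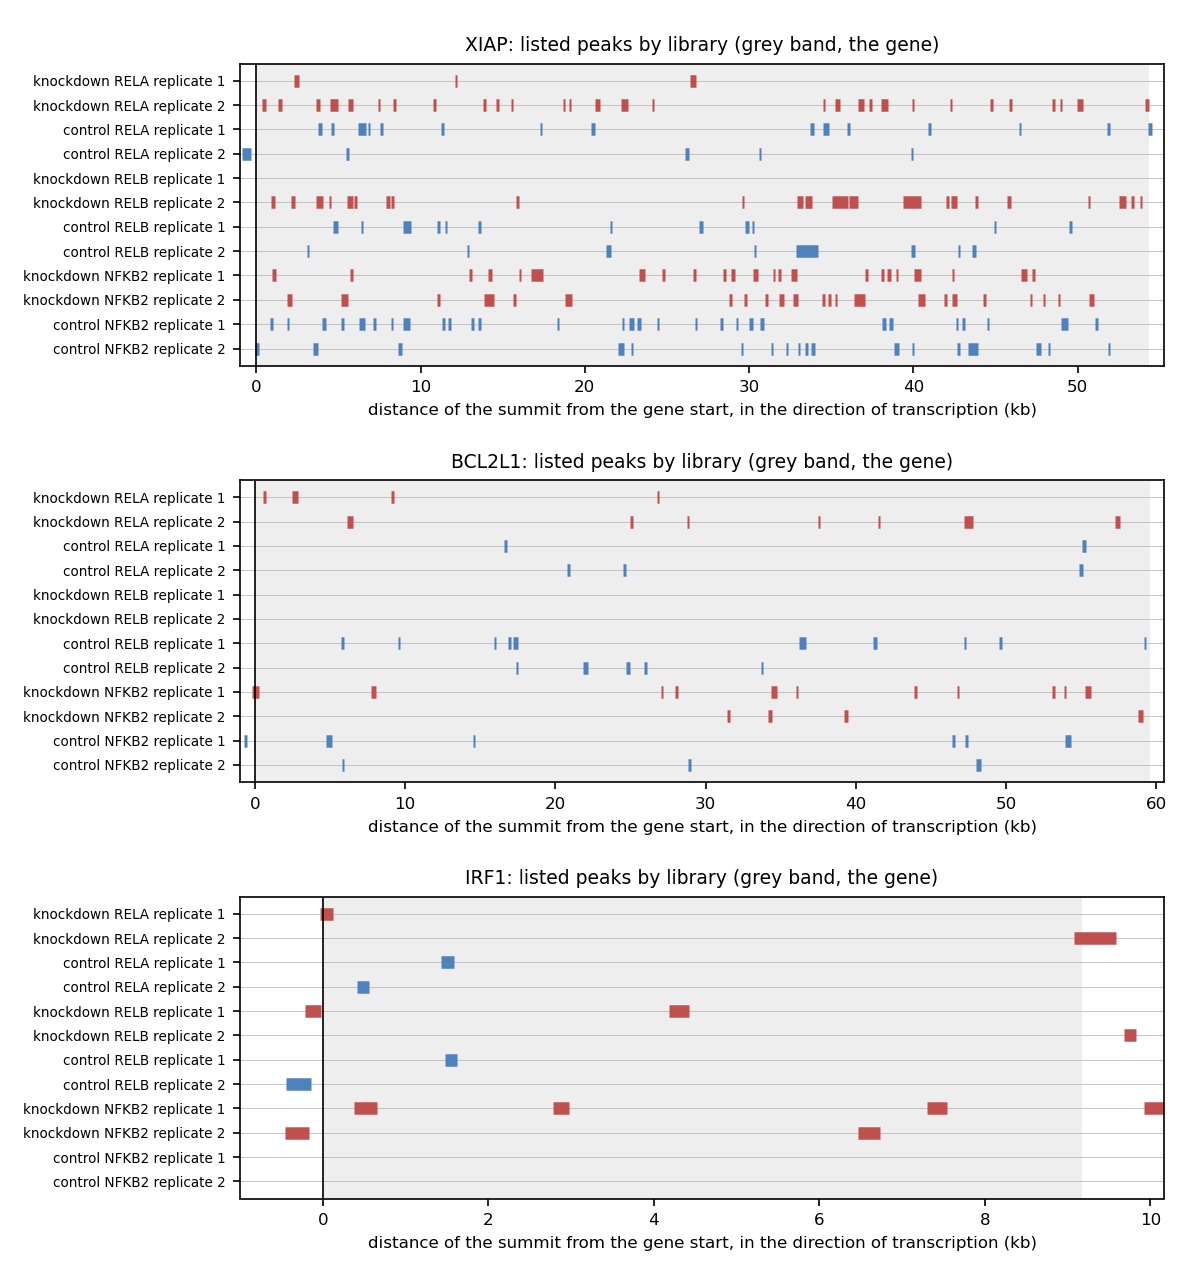
Listed peaks along XIAP, BCL2L1 and IRF1 in the 12 libraries (rows, red for knockdown and blue for control), by distance of the summit from the gene start in kb, each bar having the length of its peak. Peaks at XIAP fill all parts of the gene in both conditions, BCL2L1 has none in the RELB knockdown, and the 4 and 2 peaks of the NFKB2 knockdown at IRF1 do not coincide.

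Counted by number of peaks, both knockdown libraries lay above both control libraries at BCL2L1 with RELA (background 0.719% of all genes), at no gene with RELB (0.494%), and at BIRC3, IL1B and IRF1 with NFKB2 (8.13%). They lay below at 7 of the 34 genes with RELA (TRAF1, CFLAR, SELE, CXCL10, PLAU, TNFAIP2 and IKBKE, background 13.5%) and at 10 with RELB (BCL2, BCL2L1, TRAF2, CXCL10, PTGS2, PLAU, CD83, IKBKE, JUNB and GADD45B, background 25.0%). With NFKB2 they lay below at BCL2 and CFLAR (background 14.6%). Genes of like length would give 0.31, 0.20 and 2.73 above and 4.68, 7.84 and 4.46 below. Without the short lists, the remaining knockdown library lay above both controls at 9 genes with RELA (background 40.3%) and 2 with RELB (background 23.0%), and below both at 8 with RELA (background 14.2%) and 12 with RELB (background 26.2%), where genes of like length would give 11.76, 6.62, 5.00 and 8.43.

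Peaks within 1 kb of the gene start were found in 3 or more libraries at 18 of 28 genes (64.3%), where 59.6% of all genes with a known start had them. CD83 had a start peak in 7 libraries, and VCAM1, SELE and IRF1 in 6 each. XIAP, CFLAR, CXCL10 and IL1A had one in 5, ICAM1, CSF2 and PTGS2 in 4, and BCL2, BCL2L1, TRAF1, TRAF2, IL1B, IKBKE and JUNB in 3. TNIP1, despite peaks in all libraries, had none within 1 kb of the outermost start of the gene, which is the start used in these counts. The κB site of TNIP1 printed above lies before the start of a shorter transcript. At IRF1 the start peaks came from 4 knockdown and 2 control libraries, at CFLAR from 4 and 1, at CXCL10 from 1 and 4, and at IKBKE from 0 and 3. The split was 2 and 4 at VCAM1 and SELE, 3 and 4 at CD83, and 2 and 3 at XIAP and IL1A. It was 2 and 2 at ICAM1, CSF2 and PTGS2, 2 and 1 at BCL2L1, TRAF1 and IL1B, and 1 and 2 at BCL2, TRAF2 and JUNB. The share of all genes with such splits was not computed, so the splits cannot be read as a result about these genes. Per library, a start peak was found at 7.14% to 53.6% of the 28 genes and at 6.03% to 37.4% of all genes. The short knockdown lists had start peaks at only 6.52% (RELA) and 6.03% (RELB) of all genes.

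With all peaks, NFKB2 libraries held more peaks at the 34 genes than the RELA and RELB libraries of the same preparation, by 0.97 on the log2 scale (SD over preparations 1.03, higher in 4 of 4, exact two-sided permutation p = 0.012, the smallest this test can give). The difference was 2.51 in knockdown preparation 1, which holds the short RELA and RELB lists, and 0.33, 0.62 and 0.43 in the others. Without the short lists it was 0.46 (exact permutation p = 0.074). Leaving out knockdown NFKB2 replicate 1 is the same calculation, since either choice removes knockdown preparation 1. Per 100000 listed peaks the difference was 0.08 (exact permutation p = 0.41).

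Peaks seldom fell on the same bases in different libraries. The windows of the 34 genes hold 981768 bases, of which 30.8% lay under a peak of any library, and 79.5% of these lay under a peak of 1 library alone. The share of bases in common (the Jaccard index, bases under peaks of both libraries over bases under peaks of either) was 1.67% on average for the 6 pairs of replicates of a group and 3.14% for the 12 pairs of different antibodies in the same preparation. It was 1.94% for different antibodies in other preparations of the same condition, 1.69% for the same antibody in the other condition, and 1.3% for pairs that differed in both. Pairs from the same preparation exceeded pairs from different preparations, both with different antibodies, by a Jaccard index of 0.0162 (exact one-sided permutation p = 0.0017, the smallest that 576 orderings allow). The orderings also moved libraries between conditions, so preparation was not separated from condition or from the shared input. This separation had been seen before over the genome, so the test is not independent. Without the short lists the separation was 0.0189 (exact one-sided permutation p = 0.028). With the same number of peaks from each library the separation was −7.25e-05 (exact one-sided permutation p = 0.48), within 5 kb of gene starts it was 0.0064 (exact permutation p = 0.052), and with the 20000 smallest p-values of each library it was 0 (exact permutation p = 1).

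A base covered in 4 or more libraries was found at 7 genes, namely XIAP (6) and BIRC3, BCL2, CFLAR, SELE, IL1A and CD83 (4 each). This was 20.6% of the 34, where 42.1% of all protein-coding genes had such a base and genes of like length would give 10.23 of 34. A base covered in 6 or more was found at 4.43% of all genes. At BCL2 the 4 were the RELA and RELB control libraries (31 bp at chr18:63232203-63232233, 87887 bp after the start). At CFLAR the 4 came from 4 different preparations, 2 of each condition, over 121 bp at chr2:201125889-201126009. At CD83 the 56 bp at chr6:14117802-14117857 lay downstream of the κB sites printed above, and were covered in control RELA replicate 2, knockdown RELB replicate 2, control RELB replicate 2 and control NFKB2 replicate 2, which are 2 preparations.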

How the data were processed

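Peaks at 34 known NF-κB targets were described in 12 ChIP-seq libraries of T47D cells (6 groups of 2). The 4 input libraries were used only through the authors' peak calls. Per the submitters' processing notes, reads were mapped with BWA 0.7.12 to hg38 and peaks were called with MACS2 2.1.0, and the authors called peaks per library. The deposited positions are in base pairs. The deposited score is the unadjusted −log10 p-value times a constant and was not used. The deposited fold enrichment is the ratio of signal to local background at the summit, and the deposited lists also hold −log10 p-values and −log10 q-values. Other settings of the authors are not given in the sources used here, and sequencing depth is unknown.

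A peak was counted at a gene when at least 1 bp overlapped the RefSeq span (GRCh38.p14) with 1 kb added on either side, and intervals listed for several summits were counted once. Genes of like length are the 200 protein-coding genes nearest in span length, and an expected number is the sum of their shares. This is a description and carries no test. Fragment numbers at a summit were recovered from fold enrichment and p-value by the formulas of MACS2, with Poisson tail probabilities, 1 fragment added to both counts and a tolerance of 1e-04 in −log10 p. Peak numbers were compared as log2 ratios of geometric means, with exact permutation tests over libraries. Counting and recovery were tested on simulated data. Python 3.11.15, numpy 2.4.6, pandas 2.3.3 and scipy 1.17.1 were used.

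The 34 genes, the 20 other pathway genes and the comparisons were chosen with earlier results of these data known. Named in full were genes called in a single condition, the 5 with the highest −log10 q (3 were above 0, and ties at 0 were broken by the unadjusted p-value), genes with a peak in all libraries or in none, and genes with a peak within 1 kb of the start in 3 or more libraries. Promoter sequences were chosen by the number of libraries with a peak on them, at most 5 genes, with ties broken by symbol. Alternatives were q and p thresholds, equal list lengths, other windows, leaving out each library, BCL2 or long intervals, and pairing by replicate number. Leaving out XIAP, or the short lists, was chosen after seeing the data.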

Additional observations from a re-analysis of the deposited data

Results flagged for a closer look

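BCL2L1 showed opposite directions with 2 antibodies. The log2 ratio of peak numbers, knockdown over control (count + 1), was 0.87 with RELA, where both knockdown libraries (4 and 7 peaks) lay above both control libraries (2 and 3). It was −3.02 with RELB, where the knockdown gave 0 and 0 peaks and the control 10 and 5. Among all protein-coding genes, 0.719% had both knockdown libraries above both controls with RELA, and 25.0% had them below with RELB. The share of genes with both was not computed, and the difference between antibodies was not tested. Knockdown RELB replicate 1 has the shortest list, but knockdown RELB replicate 2, with 552509 listed peaks, also had none at BCL2L1. No peak at BCL2L1 had a q under 1. Groups of 2 libraries do not allow a search for outlying samples.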

How the results depend on the processing

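The peak numbers at the known targets moved with the length of the lists. The log2 ratio of knockdown over control lay between −2.22 and 0.23 (RELA), −2.48 and −0.27 (RELB) and −0.46 and −0.12 (NFKB2) when each library was left out in turn. It changed sign for RELA with the 20000 smallest p-values (0.34), for RELB with these (0.37), with equal list lengths (0.50) and per 100000 listed peaks (0.034), and for NFKB2 within 5 kb of gene starts (0.19). For NFKB2 it was −0.73 with equal list lengths, −0.48 with the 20000 smallest p-values and −0.027 without BCL2. No log2 ratio passed its test under any setting, and 2 libraries against 2 cannot reach 0.05. Pairing by replicate number gave the same log2 ratios of −0.99, −1.38 and −0.29 (exact sign-flip p of 1, 0.5 and 0.5, with 0.5 the smallest that 2 pairs allow). Same-numbered libraries did not deviate together (r over genes of −0.066 for RELA, 0.029 for RELB and 0.058 for NFKB2), so the numbers were not used as pairs.

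Genes called in the control only numbered 0 for RELA and 0 for RELB at a q of at most 0.05, at a −log10 q of at least 5 and with the 20000 smallest p-values, 5 for RELA within 5 kb of gene starts, and 2 for RELB and 2 for NFKB2 with equal list lengths. Genes called in the knockdown only numbered 1 for RELA with the 20000 smallest p-values, 4 for RELB with equal list lengths, and 0 for NFKB2 at both q thresholds, with the 20000 smallest p-values and with equal list lengths. When each library was left out, control-only genes ranged from 4 to 12 (RELA), 4 to 13 (RELB) and 0 to 1 (NFKB2), and knockdown-only genes from 0 to 2, 0 to 1 and 1 to 5. The shares of all genes were not computed for the thresholds, equal list lengths and 5 kb windows. Counts under those settings can therefore not be read as a result about the known targets. The cause was not tested.

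The excess of NFKB2 peaks was 0.46 without the short lists (p = 0.074), 0.28 with the 20000 smallest p-values, 0.57 within 5 kb of gene starts, 0.080 per 100000 listed peaks, −0.105 with equal list lengths and −0.125 at a q of at most 0.05 (exact permutation tests). It ranged from 0.46 to 1.18 when each library was left out. The separation by preparation ranged from 0.0113 to 0.0221 when each library was left out, and was 0.0124 without XIAP. It was 0.0064 within 5 kb of gene starts, 0 with the 20000 smallest p-values and −7.25e-05 with equal list lengths. At a q of at most 0.05 it had no value because libraries had no such peak at these genes, and at a −log10 q of at least 5 there was no peak at them, so that log2 ratios also had none. The difference from genes of like length moved by less than its SD between libraries in all settings run.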
